A study of Rattus norvegicus with 6 samples.

Results

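Glutamate transporters of the vesicle and of the plasma membrane were followed in RNA from rat brain tissue labelled prefrontal cortex. The set holds 7 genes, chosen by symbol, of 30076 gene symbols in the 6 deposited tables. Slc17a6, Slc17a7 and Slc17a8 encode the vesicular transporters VGLUT2, VGLUT1 and VGLUT3, and Slc1a1, Slc1a2 and Slc1a3 encode the plasma membrane transporters EAAC1, GLT-1 and GLAST. Slc1a4 encodes ASCT1, a neutral amino acid exchanger of the same family as the plasma membrane transporters.

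The study asked how gene expression in aged rats that received cranial osteopathic manipulation, abbreviated COM in the labels, compares with that in aged rats that did not. The manipulated group held 3 male F344 rats aged 18 months, treated by hand on the head for 7 days while under 1.5 to 3% isoflurane. The untreated group held 3 male F344 rats of the same age, which were anaesthetised too and got no manipulation. Each rat gave 1 library from a 1 mm coronal slab, and levels are FPKM, a fragment count divided by transcript length and library size, so that levels of different genes can be set side by side per length. Manipulated libraries are replicates 4, 5 and 6 and untreated libraries are replicates 1, 2 and 3.

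A glutamatergic terminal fills its vesicles through a VGLUT, which uses the proton gradient that the vesicular proton pump builds. In the rodent brain VGLUT1 is the main form of cortical and hippocampal neurons, VGLUT2 of thalamic, hypothalamic and brainstem neurons, and VGLUT3 of small populations that often release another transmitter as well. After release, glutamate is taken up with sodium by GLT-1 and GLAST, mainly of astrocytes, and by EAAC1 of neurons.

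The libraries were checked against cell type markers before the transporters were compared. Cortical excitatory neuron genes were present in every library, with summed levels of 65.4 to 114 FPKM in manipulated and 83.5 to 119 FPKM in untreated rats over the 15 of 18 genes with rows of their own. Markers of neurons and epithelium from outside the prefrontal cortex were measured as well, so the markers go against a slab of prefrontal cortex alone, in both groups. Ttr, the main transcript of choroid plexus, had 233 FPKM or more in each library. Thalamic neuron markers summed to 20.3 to 32.7 FPKM in manipulated and 107 to 122 FPKM in untreated rats, and striatal projection neuron markers summed to 79.2 to 203 FPKM in manipulated and 46.1 to 71.2 FPKM in untreated rats. Hypothalamic neuron markers summed to 8.03, 9.59 and 77.6 FPKM in manipulated replicates 4, 5 and 6, compared with 74.3 to 142 FPKM in untreated rats. Most genes were lower in manipulated rats as deposited: the median log2 fold change of the 10657 genes tested was -0.36, with 87.0% below 0, and it was -0.0037, with 50.7% below 0, after median-ratio scaling between libraries. Manipulated replicate 6 had the lowest scaling factor, 0.647, against 0.947 and 0.995 in the other manipulated libraries and 0.954 to 1.32 in the untreated ones. All 7 transporter genes are given with both scalings for that reason.

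Slc17a6 fell in manipulated rats, and no other transporter gene passed the test. The gene (chromosome 1, 106998623 to 107038704, Rnor_6.0) had 1.28, 1.11 and 1.17 FPKM in manipulated replicates 4, 5 and 6, against 10.8, 9.65 and 11.4 FPKM in untreated replicates 1, 2 and 3. The 3 manipulated values lay close together and far below the lowest untreated value. The means were 1.18 ± 0.0881 FPKM in manipulated and 10.6 ± 0.871 FPKM in untreated rats (SD, n = 3 each), a ratio of 0.112. On the log2(FPKM + 1) scale, which understates changes at low levels, the change was -2.41 (SE 0.19), and limma gave an adjusted p of 0.000873 over all tested genes. In bulk tissue, fewer cells of a type, less RNA per cell and a different share of brain regions in the slab cannot be told apart. Marker sums of regions outside the prefrontal cortex differed between the groups too, as given above.

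The fall of Slc17a6 was larger than the uncertainty that the authors gave for single libraries. The highest upper bound of its FPKM interval among manipulated libraries was 1.43, and the lowest lower bound among untreated libraries was 9.13. The row of untreated replicate 3 covers the same bases as the 3 manipulated rows, while those of untreated replicates 1 and 2 begin up to 1 kb earlier, at 106997632 and 106997625. The part of the row span in these values was not tested. After median-ratio scaling the log2 fold change was -2.07 (SE 0.14), and the limma adjusted p was 0.00590. Among all tested genes, Slc17a6 had rank 6 by p and rank 28 by size of the decrease.

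Of the 5 transporter genes in this fit, 1 passed the adjusted threshold of 0.05 as lower and 0 as higher. Of the 10657 tested genes, 0.272% passed as lower and 0.0845% as higher, and 15.1% had an unadjusted p under 0.05 in either direction. The groups did not overlap, with manipulated rats lower, for Slc17a6 and Slc1a1, 2 of the 5, against 23.7% of all tested genes. None of the 5 had all manipulated values above all untreated ones, against 1.08% of tested genes. After median-ratio scaling Slc17a6 alone of the 5 had groups that did not overlap, manipulated lower, against 9.85% of tested genes. The count of genes whose groups part is thus to be read against a high background, and the Slc17a6 call rests on the fit across all genes.

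**Figure D1:**
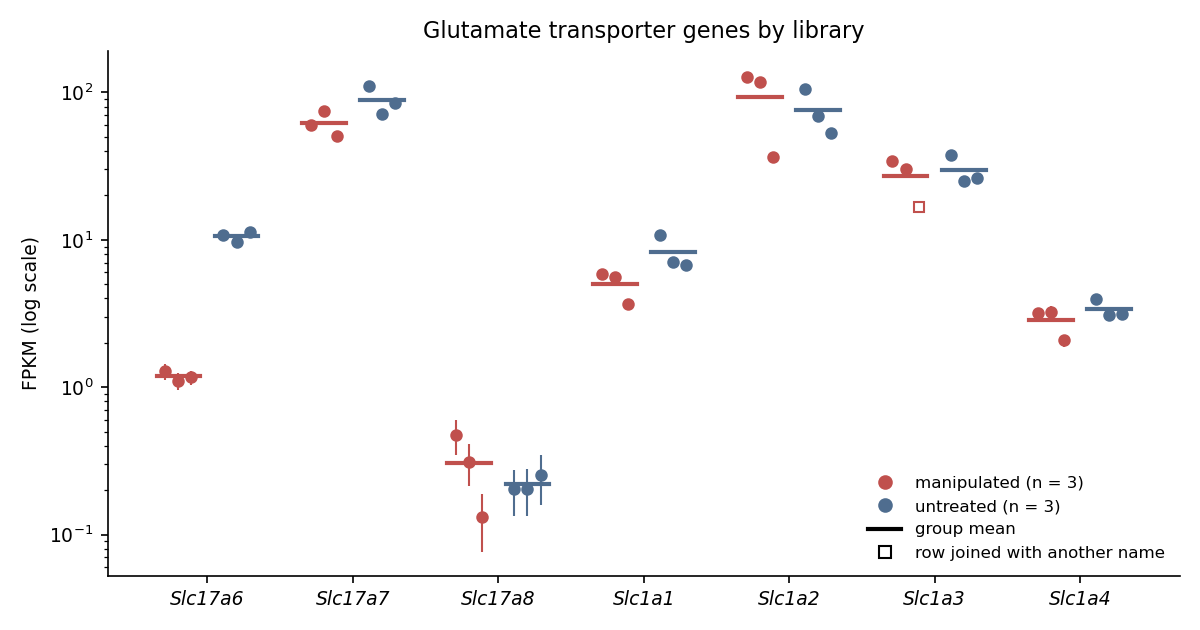
FPKM on a log axis for the 7 transporter genes, with manipulated libraries (red) left of untreated libraries (blue), each group in order of replicate number. Points are libraries with the interval the authors gave, bars are group means (n = 3) and the open square is a row shared with another name; Slc17a6 had 1.11 to 1.28 FPKM in manipulated and 9.65 to 11.4 FPKM in untreated rats, while the groups of Slc17a7, Slc17a8, Slc1a2, Slc1a3 and Slc1a4 overlap.

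Slc17a7, the most abundant vesicular transporter gene here, did not pass the test. The gene (chromosome 1, 101161252 to 101173174) had 59.9, 74.4 and 50.8 FPKM in manipulated rats, against 110, 71.5 and 84.9 FPKM in untreated rats. Manipulated replicate 5 lay above untreated replicate 2, so the groups overlap. The means were 61.7 ± 11.9 FPKM in manipulated and 88.9 ± 19.8 FPKM in untreated rats (SD, n = 3 each), a difference that limma put at -0.52 (SE 0.31) on the log2 scale, adjusted p = 0.351. After median-ratio scaling it was -0.06 (SE 0.14), with an adjusted p of 0.871.

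Slc17a8 lay near the lower end of what was measured. Its levels (chromosome 7, 30216079 to 30274984 in manipulated replicate 4) were 0.472, 0.312 and 0.132 FPKM in manipulated rats, against 0.205, 0.205 and 0.254 FPKM in untreated rats. As deposited the manipulated values spanned the untreated ones on both sides. After median-ratio scaling they were 0.499, 0.313 and 0.204, against 0.155 to 0.215 in untreated rats, and the groups overlap. With a mean under 1 FPKM, Slc17a8 was left out of the fit above. In the fit of 19630 genes with no filter its log2 fold change was 0.09 (SE 0.10), and the limma adjusted p was 0.604. After median-ratio scaling the change was 0.16 (SE 0.08), with a limma adjusted p of 0.554.

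Within a library Slc17a6 stood lower against Slc17a7 in every manipulated rat than in any untreated one. The Slc17a6 to Slc17a7 ratio was 0.0213, 0.0149 and 0.0230 in manipulated rats, against 0.0978, 0.135 and 0.134 in untreated rats. Put the other way round, Slc17a7 stood 46.9, 67.3 and 43.5 times above Slc17a6 in manipulated libraries and 10.2, 7.41 and 7.48 times above it in untreated ones. The groups did not overlap, and such a ratio is free of the scaling between libraries. The mean ratio was 0.0197 ± 0.00429 in manipulated and 0.122 ± 0.0211 in untreated rats (SD, n = 3 each), a difference of -2.64 in mean log2 ratio, or 0.160-fold. The exact two-sided permutation p was 0.1, below which 3 libraries against 3 cannot go, and 0.35 when adjusted over the 7 ratios and sums compared in this way.

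Slc17a6 made up 2.07%, 1.46% and 2.24% of summed vesicular transporter FPKM in manipulated rats, against 8.90%, 11.9% and 11.8% in untreated rats. Slc17a7 gave 97.2%, 98.1% and 97.5% of that sum in manipulated rats, against 90.9%, 87.9% and 88.0% in untreated rats. It remained the main vesicular form in all 6 libraries. The sum itself was 61.7, 75.8 and 52.1 FPKM in manipulated rats, against 121, 81.3 and 96.5 FPKM in untreated rats, without overlap and with an exact permutation p of 0.1 (0.35 adjusted). Its mean was lower by 36.6 FPKM in manipulated rats, and Slc17a7 held 74.5% of that gap and Slc17a6 25.7%. After median-ratio scaling the split turned round, with 30.1% for Slc17a7 and 71.3% for Slc17a6, and the log2 difference of the sum was -0.20, against -0.66 as deposited.

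Slc17a8 was a small part of the vesicular pool in every library. Its ratio to Slc17a7 was 0.00788, 0.00419 and 0.00261 in manipulated rats, against 0.00186, 0.00286 and 0.00299 in untreated rats, and the groups overlap. The log2 difference was 0.81, with an exact permutation p of 0.3 and an adjusted p of 0.35.

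**Figure D2:**
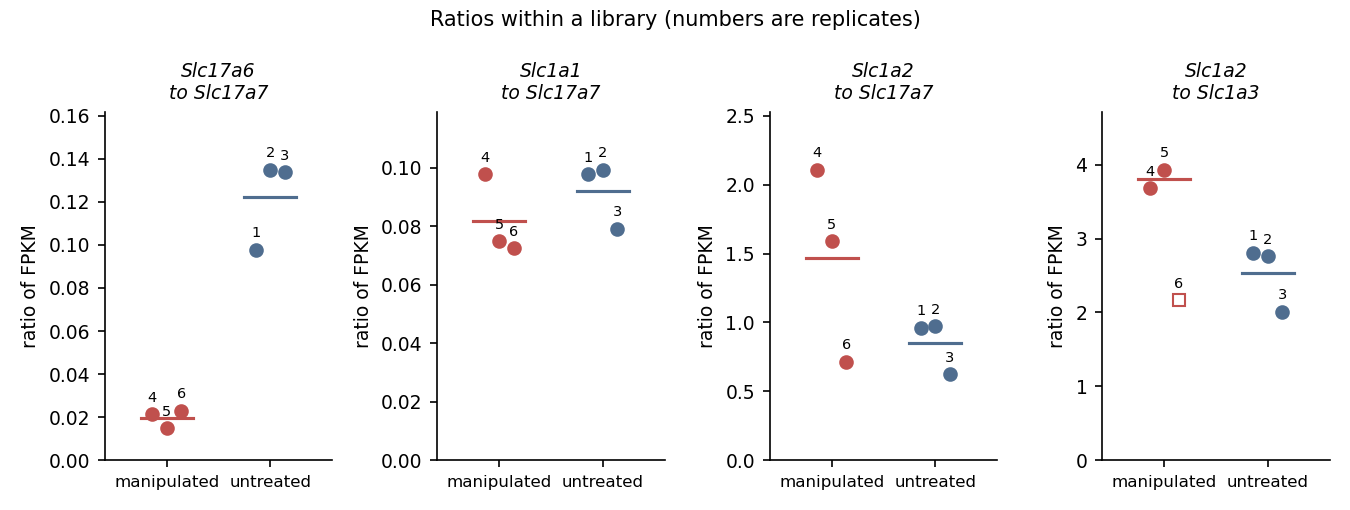
Ratios of FPKM between transporter genes within each library, manipulated left of untreated, on linear axes that begin at 0; numbers are replicates, bars are group means and the open square, left out of its mean, uses the row that joins Slc1a3 with another name. The Slc17a6 to Slc17a7 ratio lay between 0.0149 and 0.0230 in manipulated and between 0.0978 and 0.135 in untreated rats, and among the other ratios those of Slc1a2 and Slc1a1 to Slc17a7 overlap between groups.

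Slc1a1, the neuronal uptake carrier, was lower in every manipulated library but did not pass the test. Its levels (chromosome 1, 246954980 to 247037056) were 5.86, 5.56 and 3.68 FPKM in manipulated rats, against 10.8, 7.10 and 6.72 FPKM in untreated rats. The groups did not overlap, although the intervals met, with an upper bound of 6.28 in manipulated replicate 4 and a lower bound of 6.24 in untreated replicate 3. The means were 5.03 ± 1.18 FPKM in manipulated and 8.21 ± 2.26 FPKM in untreated rats (SD, n = 3 each), or -0.60 (SE 0.27) on the log2 scale, for which limma gave an unadjusted p of 0.0491 and an adjusted p of 0.326. After median-ratio scaling the log2 fold change was -0.21 (SE 0.15), with an adjusted p of 0.619, and the groups overlapped. Its ratio to Slc17a7 was 0.0977, 0.0748 and 0.0725 in manipulated rats, against 0.0978, 0.0993 and 0.0791 in untreated rats, with an exact permutation p of 0.2 (0.35 adjusted). A row for the RNA of nuclear RNase P lies inside the Slc1a1 locus at 2461 to 3061 FPKM, in untreated replicate 3 as a row shared with Cdc37l1, and its part in the Slc1a1 values was not tested.

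Slc1a2, which encodes the main glutamate uptake carrier of astrocytes, varied widely among the manipulated rats. Its levels (chromosome 3, 92640737 to 92668312) were 127, 118 and 36.2 FPKM in manipulated rats, against 106, 69.4 and 52.9 FPKM in untreated rats. Manipulated replicates 4 and 5 lay above all untreated values and manipulated replicate 6 lay below them all as deposited. After median-ratio scaling manipulated replicate 6, at 56.0, was inside the untreated range of 42.3 to 80.2. The means were 93.7 ± 49.9 FPKM in manipulated and 76.2 ± 27.3 FPKM in untreated rats (SD, n = 3 each), with coefficients of variation of 53.3% and 35.8%. The log2 fold change was 0.16 (SE 0.50), where limma gave an adjusted p of 0.831, and after median-ratio scaling 0.61 (SE 0.41), with 0.585. Without manipulated replicate 4, 5 or 6 it was -0.15, -0.11 and 0.73, and without untreated replicate 3 it was -0.07, so that its sign depends on single libraries.

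The Slc1a2 row ends before a further stretch of assembled transcript. An unnamed row began 52 to 67 bases past its end in 5 of the 6 libraries and covered 6332 to 6471 bases. That row had 97.8 and 22.9 FPKM in manipulated replicates 5 and 6, against 97.4, 60.2 and 52.0 FPKM in untreated rats, in the same order of libraries as Slc1a2 itself within each group. Slc1a2 stood at 1.21 and 1.58 times the unnamed row in these manipulated libraries and at 1.09, 1.15 and 1.02 times in the untreated ones. In manipulated replicate 4 an unnamed row of 205061 bases overlapped Slc1a2 at 111 FPKM instead. Unnamed rows also overlapped Slc1a2 in manipulated replicate 6, at 16.7 FPKM, and in untreated replicates 2 and 3, at up to 251 and 97.4 FPKM. How fragments of the locus were divided among these rows was not tested, which limits a comparison of Slc1a2 levels between libraries.

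**Figure D3:**
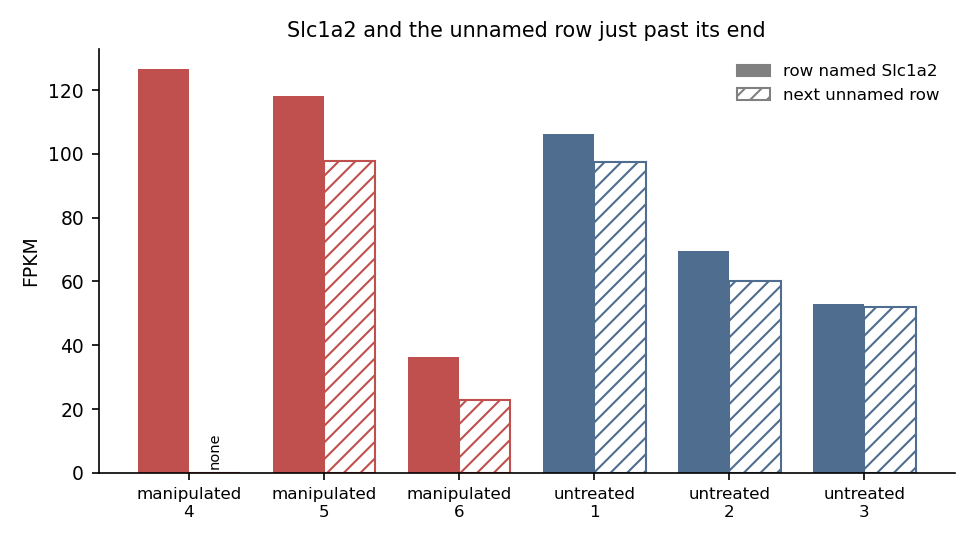
FPKM of the row named Slc1a2 (filled) and of the unnamed row that begins just past its end (hatched) in each library, manipulated (red) left of untreated (blue). In the 5 libraries that hold both rows Slc1a2 was 1.02 to 1.58 times the unnamed row, and manipulated replicate 4 has no such row.

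Slc1a3, the other astrocytic carrier, had a row of its own in 5 libraries. Its levels (chromosome 2, 57860834 to 57935363) were 34.3 and 30.1 FPKM in manipulated replicates 4 and 5, against 37.8, 25.1 and 26.3 FPKM in untreated rats. In manipulated replicate 6 the row joined Slc1a3 with the clone-named AABR07008424.1, at 16.7 FPKM, and cannot be split. Where that clone had its own row, it held 0.0290 to 0.0869 FPKM in manipulated and 0.0762 to 0.372 FPKM in untreated rats. With the joined row used for Slc1a3, the means were 27.0 ± 9.21 FPKM in manipulated and 29.7 ± 6.97 FPKM in untreated rats (SD, n = 3 each). In that fit of 13228 genes the log2 fold change was -0.17 (SE 0.35), where limma gave an adjusted p of 0.742, and after median-ratio scaling it was 0.27 (SE 0.18), with 0.609. The sign thus turned with the scaling, and neither value passed.

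The ratio of the 2 astrocytic carriers was higher in the manipulated libraries that could be compared. Slc1a2 was 3.68 and 3.93 times Slc1a3 in manipulated replicates 4 and 5, against 2.81, 2.76 and 2.01 times in untreated rats. These groups did not overlap, but the joined row of manipulated replicate 6 gave 2.17, inside the untreated range. The log2 difference was 0.61, and its exact permutation p of 0.2 (0.35 adjusted) is the lowest that 2 libraries against 3 can give, and 0.34 with a p of 0.3 when the joined row was kept. Slc1a2 was 2.11, 1.59 and 0.713 times Slc17a7 in manipulated rats, against 0.961, 0.972 and 0.623 times in untreated rats, with overlap and an exact permutation p of 0.3 (0.35 adjusted).

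Summed over Slc1a1, Slc1a2 and Slc1a3, plasma membrane transporter levels were 167 and 154 FPKM in manipulated replicates 4 and 5, against 155, 102 and 86.0 FPKM in untreated rats. The groups overlap, and the sum was 56.6 FPKM with the joined row of manipulated replicate 6. The log2 difference was 0.53 without that library, with an exact permutation p of 0.4, and 0.034 with it, with a p of 1. Slc1a2 gave 75.9%, 76.9% and 64.0% of the sum in manipulated rats, the last with the joined row, against 68.6%, 68.3% and 61.6% in untreated rats, and was the largest of the 3 in each library.

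Slc1a4, which carries serine, alanine and other small neutral amino acids, varied little over the 6 libraries, with a highest level 1.92 times the lowest, or 1.34 times after median-ratio scaling. Its levels (chromosome 14, 104581190 to 104612597) were 3.18, 3.26 and 2.08 FPKM in manipulated rats, against 3.98, 3.11 and 3.14 FPKM in untreated rats. Manipulated replicates 4 and 5 lay within the untreated range and manipulated replicate 6 below it as deposited. The means were 2.84 ± 0.661 FPKM in manipulated and 3.41 ± 0.495 FPKM in untreated rats (SD, n = 3 each), a difference that limma put at -0.21 (SE 0.22) on the log2 scale, adjusted p = 0.526. After median-ratio scaling it was 0.13 (SE 0.10), with an adjusted p of 0.648.

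**Figure D4:**
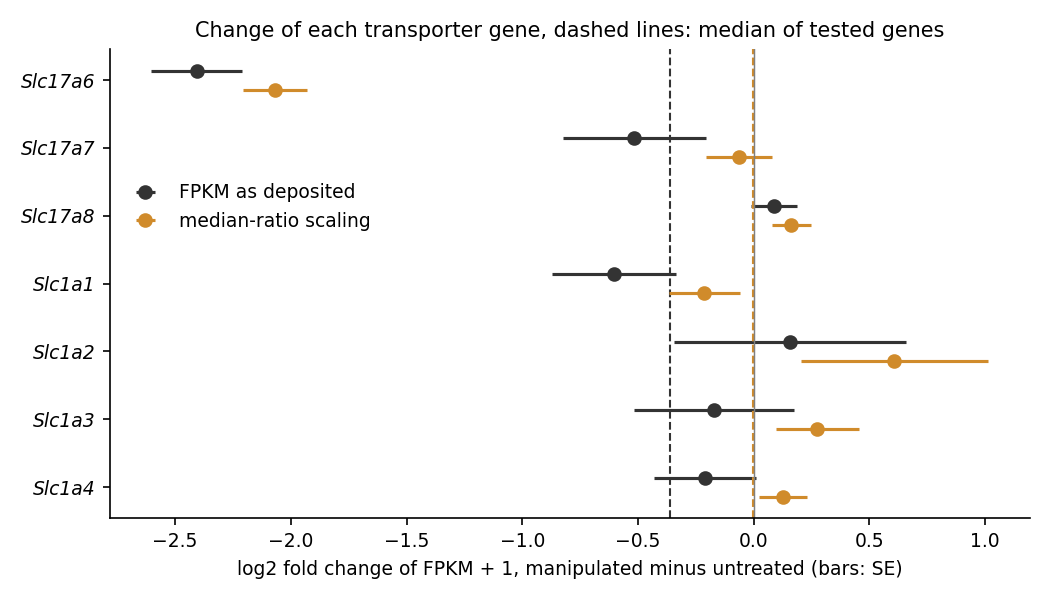
Log2 fold change of FPKM + 1, manipulated minus untreated, for each transporter gene as deposited (black) and after median-ratio scaling (orange), with bars of 1 SE and dashed lines at the median of the genes tested in each scaling (-0.36 and -0.0037). Slc17a6 lies at -2.41 and -2.07, and the other 6 genes lie between -0.60 and 0.61. The lines belong to the fit of 10657 genes. Slc17a8 and Slc1a3 come from the fits of 19630 and 13228 genes, whose own medians as deposited were -0.17 and -0.37.

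The order of levels differed between the groups in the place that Slc17a6 took, while that of Slc1a2 differed in manipulated replicates 4 and 5 only. In manipulated replicates 4 and 5 it was Slc1a2, Slc17a7, Slc1a3, Slc1a1, Slc1a4, Slc17a6 and Slc17a8, and in manipulated replicate 6 Slc17a7 came before Slc1a2. In all untreated libraries Slc17a7 came first, then Slc1a2 and Slc1a3, then Slc1a1 and Slc17a6 in either order, then Slc1a4 and Slc17a8. Neighbours whose ranges overlapped were Slc17a7 and Slc1a2 in both groups, and Slc1a1 and Slc17a6 in untreated rats. Slc17a6 thus stood below Slc1a4 in every manipulated library and above it in every untreated one.

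Tested markers of thalamic neurons moved with Slc17a6. All 9 tested genes of the 13 thalamic neuron markers were lower in manipulated rats, at a median log2 fold change of -1.99. Of these, 6 passed the test, against 0.272% of all tested genes. This list, like the others, was chosen with earlier results of these data known, so its share of calls is not independent of them. After median-ratio scaling the median was -1.65, with 4 called against 0.197% of all tested genes. Tnnt1 of the same list, not tested because its row was shared with another name in a library, had 4.03, 4.53 and 8.82 FPKM in manipulated rats, against 1.81, 1.92 and 2.50 FPKM in untreated rats, the opposite direction. Prkcd, a protein kinase C isoform of relay neurons, had 4.10 ± 0.382 FPKM in manipulated and 34.5 ± 5.74 FPKM in untreated rats (SD, n = 3 each), a log2 fold change of -2.79 with a limma adjusted p of 0.00114. Shox2, a transcription factor gene, had 0.165 ± 0.149 FPKM in manipulated and 6.40 ± 1.21 FPKM in untreated rats, with -2.66 and an adjusted p of 0.00114. The other called genes were Rgs16, Lef1, Tcf7l2 and Ntng1, with log2 fold changes of -1.80 to -2.37. None of the 10 thalamic markers with rows of their own was at 0 in all manipulated libraries. Their part in the fall of Slc17a6 was not tested.

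Of 14 hypothalamic neuron markers 7 were tested, all were lower, and 1 passed. Of all tested genes 87.0% were below 0 and 0.272% passed as lower. After median-ratio scaling all 7 were again lower and 1 passed, where 50.7% of all tested genes were below 0 and 0.197% passed as lower. Below the filter and untested, Sim1 and Otp were lower in every manipulated library, while the groups of Nkx2-1, Hdc, Hmx2 and Hmx3 overlap. Nkx2-1 had 0.562, 0.541 and 0.348 FPKM in manipulated rats, against 0.211, 0.272 and 0.622 FPKM in untreated rats. Hdc had 0.0913, 0.133 and 0.164 FPKM in manipulated rats, against 0.109, 0.0656 and 0.120 FPKM in untreated rats. Pmch encodes the precursor of melanin-concentrating hormone. It had 0.125, 0.0815 and 0 FPKM in manipulated rats, against 20.1, 19.2 and 30.5 FPKM in untreated rats, with a limma adjusted p of 3.65e-05. Hcrt, the orexin precursor, had 0.799, 1.85 and 2.05 FPKM in manipulated rats, against 5.29, 16.0 and 29.9 FPKM in untreated rats, with an adjusted p of 0.120. Of the 77.6 FPKM summed in manipulated replicate 6, Avp and Oxt, the vasopressin and oxytocin precursors, held 69.9 FPKM. With Avp and Oxt included the sums of the groups overlap, since untreated replicate 1 had 74.3 FPKM. Avp and Oxt were set aside with their values in view. The other hypothalamic markers then summed to 3.53, 4.80 and 7.65 FPKM in manipulated rats, against 29.4, 45.2 and 75.6 FPKM in untreated rats. The part of hypothalamic markers in the fall of Slc17a6 was not tested. Without manipulated replicate 6 the log2 fold change of Slc17a6 was -2.40, with an adjusted p of 0.00948.

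**Figure D5:**
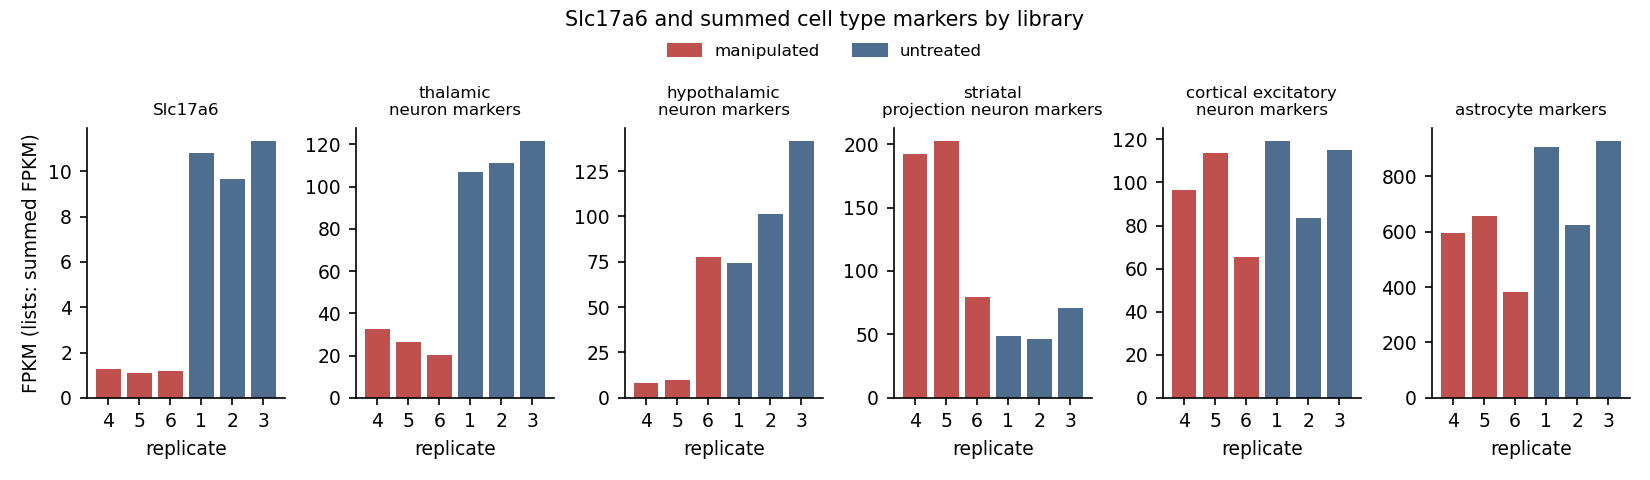
FPKM of Slc17a6 and summed FPKM of 5 marker lists in each library, manipulated (red, replicates 4 to 6) left of untreated (blue, replicates 1 to 3), with an axis from 0 in each panel. Thalamic markers summed to 20.3 to 32.7 FPKM in manipulated and 107 to 122 FPKM in untreated rats, without overlap, as for Slc17a6, while cortical excitatory markers overlapped.

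Markers of cortical excitatory neurons and of astrocytes showed no such division. Of the 15 cortical excitatory markers tested, 7 were higher and 8 lower, at a median log2 fold change of -0.12, and limma called 0, while 4 reached an unadjusted p under 0.05, against 15.1% of all tested genes. After median-ratio scaling 10 were higher and 5 lower. The smallest p were those of Nrn1, with 14.7 ± 4.16 FPKM in manipulated and 33.6 ± 7.64 FPKM in untreated rats, and Neurod6, with 3.46 ± 1.47 FPKM in manipulated and 8.44 ± 2.74 FPKM in untreated rats (SD, n = 3 each), both at an adjusted p of 0.270. Of 12 astrocyte markers tested 11 were lower, with a median of -0.56 and 0 calls, 3 with an unadjusted p under 0.05, and their sum was 382 to 658 FPKM in manipulated and 623 to 929 FPKM in untreated rats. After median-ratio scaling 4 were higher and 8 lower. Aldh1l1 and Gjb6 had the smallest p, with adjusted p of 0.309 each. Slc1a2 was above all untreated libraries in manipulated replicates 4 and 5, where summed astrocyte markers were 595 and 658 FPKM; the part of astrocyte content in these values was not tested.

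Striatal projection neuron markers had higher values in manipulated rats, without a call. All 10 tested were higher in manipulated rats, at a median log2 fold change of 1.25; limma called 0, and 9 had an unadjusted p under 0.05, against 15.1% of all tested genes. Summed, they reached 192, 203 and 79.2 FPKM in manipulated replicates 4, 5 and 6, set against 46.1 to 71.2 FPKM in untreated rats. Scn4b, which encodes a sodium channel beta subunit, had 16.2 ± 3.56 FPKM in manipulated and 5.78 ± 0.596 FPKM in untreated rats (SD, n = 3 each), with an adjusted p of 0.105, and passed after median-ratio scaling, with 0.0246, where 0.0938% of all tested genes passed as higher. Manipulated replicates 4 and 5, the libraries with the highest Slc1a2, were also those with the highest striatal sums, and the part of one in the other was not tested.

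Of the remaining marker lists none had a call by limma as deposited, and the genes with the smallest p in each had adjusted p of 0.309 to 0.409. GABAergic interneuron markers were higher for 7 of 9 tested genes (3 with an unadjusted p under 0.05), led by Vip, which was lower, and Lhx6. After median-ratio scaling 8 of the 9 were higher, where 50.7% of all tested genes were below 0. Slc32a1, the vesicular GABA transporter gene, then passed, with a log2 fold change of 1.12 and a limma adjusted p of 0.0364. Under that scaling 0.0938% of all tested genes passed as higher. The part of striatal neurons in this call was not tested. The interneuron list summed to 132 to 211 FPKM in manipulated and 128 to 193 FPKM in untreated rats. All 7 tested oligodendrocyte markers, led by Cldn11 and Mbp, and all 7 tested microglia markers, led by C1qa and P2ry12, were lower as deposited, 0 with an unadjusted p under 0.05. After median-ratio scaling 6 of the oligodendrocyte markers were higher and 1 lower, and 2 of the microglia markers were higher and 5 lower. All 7 tested choroid plexus markers were higher, 3 with an unadjusted p under 0.05, led by Kcnj13 and Folr1, and summed to 269, 1308 and 1065 FPKM in manipulated rats, against 487 to 520 FPKM in untreated rats. Cholinergic markers, none of which reached the filter, summed to 4.39 to 6.55 FPKM in manipulated and 1.08 to 3.15 FPKM in untreated rats, and serotonergic markers to at most 0.138 FPKM in manipulated and 0.253 FPKM in untreated rats.

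Genes that make, recycle and energise the transported glutamate did not pass the test. Of 61 genes in 5 lists 42 were tested, with 0 called by limma. Of all tested genes 0.272% passed as lower and 0.0845% as higher, so 0 of 42 is near the share of all genes. Of 12 tested genes of glutamate and glutamine metabolism 10 were lower and 2 higher, at a median log2 fold change of -0.47, which was -0.05 after median-ratio scaling. An unadjusted p under 0.05 was found for 2 of the 12, both lower, a share near the 15.1% of all tested genes. Oat, ornithine aminotransferase, had 7.08, 8.30 and 5.98 FPKM in manipulated rats, against 16.8, 9.71 and 13.5 FPKM in untreated rats, with an adjusted p of 0.310. Glud1, glutamate dehydrogenase, had 26.4, 25.0 and 15.4 FPKM in manipulated rats, against 47.8, 28.0 and 37.7 FPKM in untreated rats, with an adjusted p of 0.326. In both genes the groups did not overlap, with manipulated rats lower, as deposited and after median-ratio scaling. Of all tested genes, 23.7% as deposited and 9.85% after scaling had groups that parted in this way. Gpt2, an alanine aminotransferase, had 3.64 ± 0.991 FPKM in manipulated and 5.71 ± 1.22 FPKM in untreated rats (SD, n = 3 each), and the adjusted p was again 0.326.

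Glul encodes glutamine synthetase, which turns the glutamate taken up by astrocytes into glutamine, and was picked for naming with its values in view. It had 151, 167 and 113 FPKM in manipulated rats, against 191, 150 and 189 FPKM in untreated rats, and the groups overlap.

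All 12 tested genes of glutamine and cystine transport were lower, at a median log2 fold change of -0.35, next to -0.36 over all genes, and 8 of the 12 were higher after median-ratio scaling. The smallest p were those of Slc3a2 and Slc7a6, subunits of amino acid exchangers, and Slc7a11, the cystine and glutamate exchanger, with adjusted p of 0.332 to 0.338. Slc7a11 had 2.79, 2.63 and 1.26 FPKM in manipulated rats, against 3.94, 2.38 and 4.24 FPKM in untreated rats, so the groups overlap. None of these 12 had an unadjusted p under 0.05.

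All 12 tested genes of the vesicular proton pump list were lower, with a median of -0.45 as deposited and -0.0051 after median-ratio scaling, where 6 were higher and 6 lower. Atp6v1h had 14.2, 15.1 and 8.98 FPKM in manipulated rats, against 19.5, 15.1 and 28.1 FPKM in untreated rats, and had the smallest p of the list, with an adjusted p of 0.328. Atp6v0b and Atp6v1d, further pump subunits, followed with adjusted p of 0.333 and 0.361. The list's median was thus close to that of all genes in both scalings.

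Of the 5 tested sodium pump genes, whose products keep the gradient that drives uptake, 4 were lower and 1 was higher, with a median of -0.40 (0.05 after median-ratio scaling). Atp1b3 and Atp1b1, beta subunits, had adjusted p of 0.330 and 0.370 and were lower. Slc17a5, which encodes the lysosomal sialic acid carrier sialin and was the one other family gene tested, had 1.64, 2.93 and 1.39 FPKM in manipulated rats, against 2.33, 1.68 and 1.91 FPKM in untreated rats.

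The genes most like Slc17a6 across the 6 libraries were found by the root mean square difference of log2(FPKM + 1) after each gene's own mean was subtracted. They were Rgs16, at 0.13, Ramp3, at 0.18, Zfyve21, at 0.19, Shox2, at 0.20, and Prkcd, at 0.21. Rgs16, a regulator of G protein signalling, had 0.991, 0.922 and 0.999 FPKM in manipulated rats, against 7.85, 7.61 and 8.07 FPKM in untreated rats. Ramp3, a partner of the calcitonin receptor family, had 1.27, 1.72 and 1.14 FPKM in manipulated rats, against 9.33, 9.39 and 10.5 FPKM in untreated rats. Rgs16, Shox2 and Prkcd are also on the thalamic list, and Zfyve21 was listed at 0 FPKM in all manipulated libraries. Because that list was chosen with earlier results of these data known, the shared names are not independent of them. A gene with a fall this large has few others near it, so the likeness describes a shared drop over 6 libraries.

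The genes most like Slc17a7 were Sypl1, Ubxn1, Ctsh, Tp53bp2 and Dgka, at 0.048 to 0.054. Those most like Slc1a2 were Etfrf1, Dgkb, Mfap3l, Lrrc10b and Ano3, at 0.098 to 0.25. Etfrf1, the closest, had 6.45, 5.76 and 1.53 FPKM in manipulated rats, against 5.33, 3.59 and 2.52 FPKM in untreated rats, with the same high and low libraries as Slc1a2. Those most like Slc1a3, with its joined row, were Ugt8, Slc4a4, Rab11fip2, Taok1 and Gpr37, at 0.011 to 0.059. Ugt8, an enzyme of myelin lipid synthesis, had 8.83, 7.62 and 3.99 FPKM in manipulated rats, against 9.90, 6.25 and 6.54 FPKM in untreated rats, and Slc4a4, a sodium bicarbonate cotransporter, is on the astrocyte list.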

How the data were processed

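RNA of 6 rats, 1 library each, was analysed. The authors deposited FPKM. The submitters' processing notes name STAR 2.7.3a, Cufflinks and the rat build Rnor_6.0, and each gene row carries an interval per the file headers. Depth is unknown and strandedness not given in the sources used here, so reads of genes that overlap cannot be told apart. Manipulated replicates 4, 5 and 6 held 67347, 48931 and 68355 rows, against 114717, 83240 and 98031 in untreated replicates 1, 2 and 3. Unnamed rows among them were 35559, 17102 and 36546, against 83180, 51528 and 66414. The part of this difference in the FPKM was not tested. FPKM was summed per symbol and library. Of 30076 symbols, 26641 were kept; left out were 3254 that shared a row, 144 found at several places, 32 absent from a library and 5 whose estimate failed. The 10657 averaging at least 1 FPKM were tested with limma 3.58.1 in R 4.3.3 on log2(FPKM + 1), with a mean-variance trend, two-sided, with Benjamini-Hochberg adjustment over all tested genes and a threshold of 0.05. Ratios and sums were compared with exact permutation tests. Starts count from 1. The limma fit was checked on simulated data with independent noise per gene. The shift between libraries seen here was not part of that simulation. Tables were made with Python 3.11.15.

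The members, the 5 pathway lists and the 11 marker lists were chosen with earlier results of these data known. Named were all members, every called gene of a list, the 3 genes of each pathway list and the 2 of each marker list with the smallest p, and the 5 genes most like Slc17a6, Slc17a7, Slc1a2 and Slc1a3, clone names passed over; 1 gene this rule takes is not reported here. Tnnt1, Avp, Oxt, Sim1, Otp, Nkx2-1, Hdc, Hmx2, Hmx3, Ttr, Slc32a1, Gad1 and Gad2 were named outside the rule, with their values in view. Alternatives covered pseudocount, filter, scaling, variance model, joined rows and each library left out. Added after the data were seen, Slc17a8 was taken from the fit with no filter, Slc1a3 from the fit that keeps joined rows, and Slc1a3 was treated as missing in manipulated replicate 6.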

Additional observations from a re-analysis of the deposited data

How the results depend on the processing

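The Slc17a6 call was the same in 17 of 17 alternatives, with log2 fold changes of -3.15 to -2.07, a highest adjusted p of 0.0150 and -2.47 to -2.36 with 1 library left out, and the number of transporter genes called was the same in all of them. The number of all genes called, 38, was 20 with no filter, 84 under a robust variance prior, 940 under weights per library and 24 with joined rows kept. With weights per library 2 pathway genes, Gad2 and Oat, passed, against 0. With a pseudocount of 1 on both values the log2 difference of the Slc17a6 to Slc17a7 ratio was -1.89. With joined rows kept the Slc1a2 to Slc1a3 ratio gave 0.34 and the plasma membrane sum 0.034, and median-ratio scaling gave -0.20 for the vesicular sum. The causes of these changes were not tested.

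Signs of uncalled genes turned under median-ratio, TPM and upper-quartile scaling, to 0.27, 0.20 and 0.26 for Slc1a3, 0.13, 0.078 and 0.11 for Slc1a4, 0.27, 0.25 and 0.26 for Slc17a5, and 0.090, 0.0094 and 0.071 for the oligodendrocyte gene Mbp. Slc1a3 was 0.16 with weights per library and 0.13 with its joined value missing. With 1 library left out, Slc1a3 ranged from -0.37 to 0.13, Slc1a2 from -0.15 to 0.73, Slc17a8 from -0.0026 to 0.19 and Slc17a5 from -0.24 to 0.12. The calls of Ntng1, Tcf7l2, Lef1 and Shox2 ended in 14, 10, 6 and 1 of their alternatives. No paired analysis was possible because the groups share no replicate numbers.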

Other observations

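Other genes of the SLC17 and SLC1 families lay below the filter and were not tested. Slc1a6, which encodes EAAT4, the carrier of cerebellar Purkinje cells, had 1.601, 1.40 and 0.510 FPKM in manipulated replicates 4, 5 and 6, against 0.657, 0.486 and 0.744 FPKM in untreated replicates 1, 2 and 3, so that manipulated replicates 4 and 5 stood above the other libraries, as they did for Slc1a2; after median-ratio scaling all 3 manipulated libraries stood above the untreated ones, at 1.69, 1.403 and 0.789 against 0.497 to 0.595. Slc1a5, which encodes ASCT2, had 0.644, 0.619 and 0 FPKM in manipulated rats, against 0.547, 0.462 and 0 FPKM in untreated rats, and was thus listed at 0 in 1 library of each group. Slc17a9, a vesicular nucleotide carrier, had 0.129, 0.129 and 0.0609 FPKM in manipulated rats, against 0.199, 0.154 and 0.168 FPKM in untreated rats, which does not overlap as deposited and does after median-ratio scaling. Slc1a7 and Slc17a4 had at most 0.1503 FPKM in all libraries, and Slc17a3 was listed at 0 in each. All were picked for naming with their values in view. As deposited 23.7% of tested genes had groups that parted with manipulated rats lower. The share that parted with manipulated rats higher after median-ratio scaling was not counted.

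The genes of GABA synthesis from glutamate, Gad1 and Gad2, were the 2 metabolism genes with higher means in manipulated rats. Gad1 had 30.8, 25.8 and 15.2 FPKM in manipulated rats, against 16.8, 14.0 and 18.4 FPKM in untreated rats. Gad2 had 21.9, 18.4 and 9.70 FPKM in manipulated rats, against 12.9, 10.4 and 10.9 FPKM in untreated rats. In both genes manipulated replicates 4 and 5 lay above every untreated library and manipulated replicate 6 did not, as deposited. After median-ratio scaling all 3 manipulated libraries lay above every untreated one, with 23.5 to 32.5 against 12.7 to 14.7 for Gad1 and 15.0 to 23.1 against 8.70 to 10.9 for Gad2. As deposited 1.08% of all tested genes had groups that parted upward, and that share was not counted after scaling. Summed striatal markers were higher in manipulated rats too. Their part in these values was not tested.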
